A study of Mus musculus with 46 samples.

Results

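The genes described here are 39 genes of DNA replication and nucleotide synthesis, taken from a fixed list of licensing factors, replication fork proteins, polymerase subunits and enzymes that make deoxynucleotides. All 39 were found by symbol among the 24537 genes of each of 8 gene expression tables, and all 39 passed the filter on low values in every table. The tables came from 42 mouse RNA-seq libraries in 21 groups of 2, made to follow the loss of Arid1a, a subunit of the SWI/SNF chromatin remodeller, and the interferon response of cells that lack it. Cells of the mouse melanoma line B16F10, with either the non-targeting guide sgScramble or the Arid1a guide sgArid1a, were taken as subcutaneous tumors on day 15 or as cultures. The cultures were untreated, given PBS, given murine interferon-gamma (IFNγ) for 24 h, or given DMSO for 72 h. Cultures of sgArid1a cells were also given either ruxolitinib, which inhibits JAK kinases, or anti-IFNAR, which blocks the receptor of type I interferons, for 72 h. A further pair of B16F10 groups was labelled as double knockouts of Arid1a and either Cgas or Sting, the sensor and the adaptor of the cytosolic DNA response. In another experiment, sgScramble cells were given DMSO, a compound with the code name BD98, or BD98 with anti-IFNAR, for 72 h. MC38 colon cancer cells carried sgScramble or sgArid1a, and Arid1a fl/fl mouse embryonic fibroblasts (MEFs) were given ethanol (labelled WT) or tamoxifen (labelled Arid1a -/-) and taken on day 5. The labels do not name the recombinase of the MEFs, say how many clones a line held, or say that the libraries of a group came from separate cultures or animals. The p-values here therefore measure the spread between libraries, which may be technical.

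DNA replication starts at origins bound by the origin recognition complex (Orc1 to Orc6), on which Cdc6 and Cdt1 load the ring of Mcm2 to Mcm7 that will unwind the DNA. Mcm10, Cdc45 and the GINS proteins turn this ring into an active helicase. Primase and polymerase alpha lay down primers, polymerases delta and epsilon extend them on the sliding clamp Pcna, which the Rfc complex loads, and Rpa covers the single strands. Fen1 and Lig1 join the fragments of the lagging strand, ribonucleotide reductase (Rrm1, Rrm2), thymidylate synthase (Tyms) and thymidine kinase (Tk1) supply deoxynucleotides, and Uhrf1 binds half-methylated DNA behind the fork. Most of these genes are transcribed in late G1 and S phase under E2F factors, so dividing cells hold much more of their RNA than resting cells.

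Many promoters of these genes hold E2F-like sites, and those of the 4 genes called higher with sgArid1a in both untreated and DMSO-treated B16F10 cultures (Orc1, Cdc6, Mcm6 and Uhrf1) are printed here with that of Mcm2, which was the most abundant of the 39 and fell by the widest margin but one in tumors. RefSeq promoter entries (GRCm38.p6) were matched by symbol for 32 of the 39 genes. Each line gives the 150 bases before a start site, read 5′ to 3′ on the strand of the gene. That site is the one lying farthest 5′ among the promoter entries of the gene. Capitals mark letters that match the motif TTCCCGC, its variant TTCGCGC, the further variant TTGCCGC or the last variant TTGGCGC on either strand, overlapping matches included.
Orc1: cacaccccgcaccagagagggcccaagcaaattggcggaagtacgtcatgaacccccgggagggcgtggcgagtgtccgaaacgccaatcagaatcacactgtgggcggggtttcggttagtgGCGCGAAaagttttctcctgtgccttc
Cdc6: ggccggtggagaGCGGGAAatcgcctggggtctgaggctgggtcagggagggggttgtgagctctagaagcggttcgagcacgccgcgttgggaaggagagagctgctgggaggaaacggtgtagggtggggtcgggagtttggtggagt
Mcm6: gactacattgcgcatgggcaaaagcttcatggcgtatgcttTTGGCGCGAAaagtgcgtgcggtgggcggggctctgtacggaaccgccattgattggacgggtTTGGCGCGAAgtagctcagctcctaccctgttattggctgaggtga
Uhrf1: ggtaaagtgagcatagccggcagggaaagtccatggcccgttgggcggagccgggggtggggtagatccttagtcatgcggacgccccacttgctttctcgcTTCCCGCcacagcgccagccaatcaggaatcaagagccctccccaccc
Mcm2: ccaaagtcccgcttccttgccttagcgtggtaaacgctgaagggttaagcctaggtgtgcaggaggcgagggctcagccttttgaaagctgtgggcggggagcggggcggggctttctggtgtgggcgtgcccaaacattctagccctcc
The stretches lie at chr4:108579304-108579453 for Orc1 (plus strand), chr11:98908001-98908150 for Cdc6 (plus strand), chr1:128359706-128359855 for Mcm6 (minus strand), chr17:56303187-56303336 for Uhrf1 (plus strand) and chr6:88898781-88898930 for Mcm2 (minus strand). Mcm6 holds 4 matches, in 2 places where a match on each strand overlaps, starting 109, 106, 46 and 43 bases before the start site. Uhrf1 holds 1 match 48 bases before it, Orc1 1 match 27 bases before it and Cdc6 1 match 138 bases before it, while the printed stretch of Mcm2 holds none. An annotated Cdc6 transcript starts farther 5′, at chr11:98907889, so the printed Cdc6 stretch and its match lie downstream of that start. In the full window of 300 bases (250 before and 50 after the start), such letters were found in 20 of the 32 genes (62.5%) and in 9.7% of all 27025 promoters. The letters G and C made up a median of 57.5% of the windows of the 32 genes, against 52.7% over all windows. The part of this in the shares of motifs was not tested. CCAAT was found in 21 of the 32 (65.6%), against 38.0% of all promoters, and the cell cycle motif TTTGAA or its variant TTCGAA in 6 (18.8%), against 19.5%. Of the 14 genes called higher in untreated cultures, 12 had a promoter entry and 7 of those held an E2F-like match, as did 13 of the 20 with an entry among the 25 that were not called. Mcm4, Rfc2, Prim2, Pole, Gins1, Gins2 and Gins4 were not matched.

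Libraries held 8.7 to 38.8 M reads (megareads), and the shallowest, the first untreated sgScramble library, stands in the untreated comparison. Arid1a, the targeted gene, was lower in both sgArid1a tumors (log2 values of 11.24 and 11.41) than in both control tumors (11.71 and 11.57). It was likewise lower in untreated cultures (10.43 and 10.39 against 10.90 and 11.08) and in MEFs (10.12 and 10.32 against 10.52 and 10.79). In MC38 cells it was lower by a smaller gap, at 10.59 and 10.53 against 10.69 and 10.71. In cultures given DMSO, the sgScramble libraries stood apart from each other, at 11.76 and 11.29, with the sgArid1a libraries at 11.29 and 11.24. Libraries given PBS in the IFNγ experiment overlapped in Arid1a. They were at 12.42 and 12.40 with the sgScramble label and at 12.25 and 12.40 with the sgArid1a label. Those given IFNγ were slightly higher with the sgArid1a label (12.15 and 12.13) than with the sgScramble label (11.997 and 12.11). So neither pair separated in the direction of the label. Nor did Arid1a follow the double knockout labels, at 11.03 and 10.74 with the Cgas label and at 10.71 and 10.83 with the Sting label. These values were above the sgArid1a libraries by 0.47 and 0.36 (limma adjusted p = 0.00596 and 0.0238). The Cgas gene (Mb21d1) was no lower in the libraries labelled for it (8.03 and 7.98) than in sgArid1a libraries (8.06 and 7.96), while the Sting gene (Tmem173) was lower in those labelled for it (9.04 and 8.87 against 9.47 and 9.51, -0.54, limma adjusted p = 0.00153). Below, sgCgas and sgSting stand for these labels. The labels of those libraries name the cell lines B16F11 to B16F14 where the titles say B16F10. Melanocyte genes were high in B16F10 libraries (Pmel at 17.55 and 17.47 in control tumors). In MEFs given ethanol the fibroblast markers averaged 8.59 and 8.65, with Col1a1 at 15.03 and 15.27 but Lum at -1.14 and -1.14. The epithelial markers averaged 4.83 and 4.84 there, with Krt19 at 9.30 and 9.35. In MC38 colon cancer cells with sgScramble the epithelial markers averaged -0.02 and -0.02, with Epcam and Krt19 listed at 0. The fibroblast markers averaged 5.08 and 5.06 in these MC38 libraries.

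**Figure D1:**
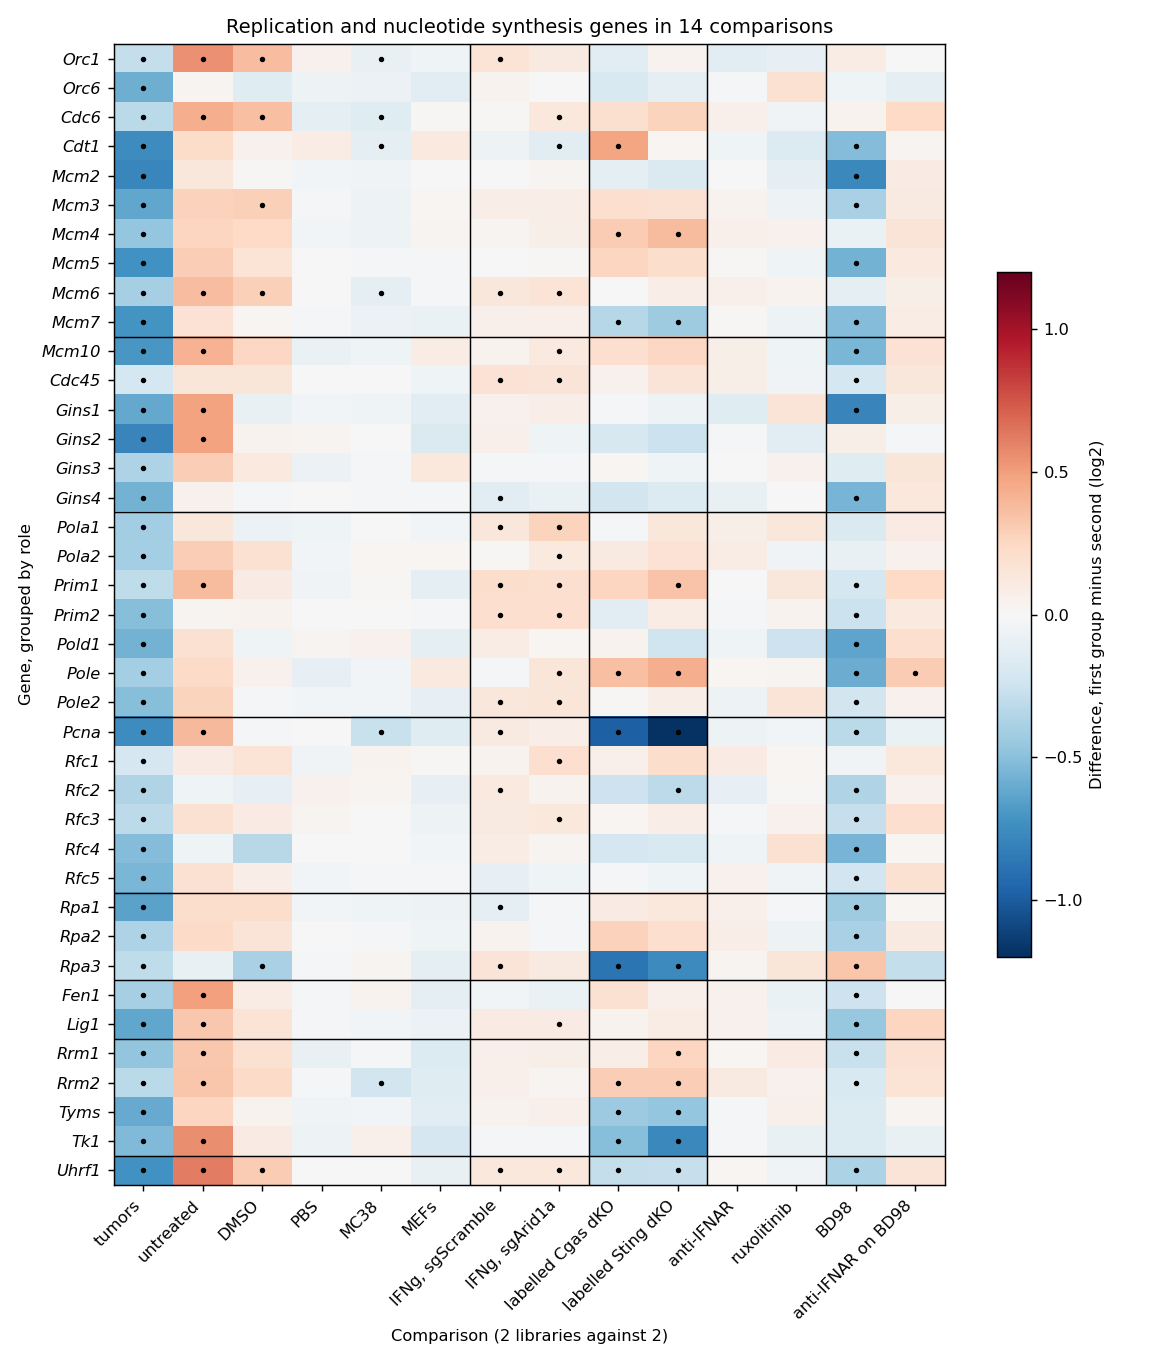
Log2 difference (color) of the 39 genes (rows, grouped by role) in 14 comparisons (columns), each of 2 libraries against 2, with dots where the adjusted p was under 0.05. The tumor column is blue and dotted in all 39 rows, the untreated column is red in 36 rows, 14 of them dotted, and Pcna in both columns labelled dKO (double knockout) has the darkest cells, at -0.98 and -1.18. The untreated, dKO and anti-IFNAR columns share the untreated sgArid1a libraries, the DMSO and ruxolitinib columns share the DMSO sgArid1a libraries, and both BD98 columns share the BD98 libraries. Each IFNγ column shares its PBS libraries with the PBS column.

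The levels of these genes spanned a wide range within B16F10 cells. In sgScramble cultures given DMSO in the BD98 experiment, whose counts allow levels per length, Mcm2 was the most abundant, at 235 and 218 RPKM (reads per kilobase of transcript, scaled to library size), followed by Rrm2 (160 and 149) and Rpa1 (152 and 145). Orc1 was the least abundant, at 6.003 and 5.81 RPKM, and Cdc6 stood next to it at 9.73 and 9.84. Orc1 and Cdc6 were thus well below the ring they help to load, with all 6 Mcm subunits between 48.5 (Mcm4) and 227 RPKM (Mcm2) on average. The median of the 39 genes was 48.2 RPKM, against 11.9 for all genes that passed the filter.

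Tumors grown from sgArid1a cells held less RNA of every one of the 39 genes than tumors from sgScramble cells. All 39 were called lower by limma at a Benjamini-Hochberg adjusted p under 0.05, and none was called higher. In this comparison 54% of all 13895 genes tested were called, 28.1% as lower and 26% as higher. The median difference over the 39 genes was -0.51 on the log2 scale, against -0.02 over all genes tested, and single genes ranged from -0.79 (Gins2) to -0.20 (Rfc1). Both sgArid1a libraries lay below both control libraries for all 39 genes, as they did for 40% of all genes. RNA of a bulk tumor comes from all its cells, so a lower share of dividing tumor cells and less RNA per cell cannot be told apart.

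**Figure D2:**
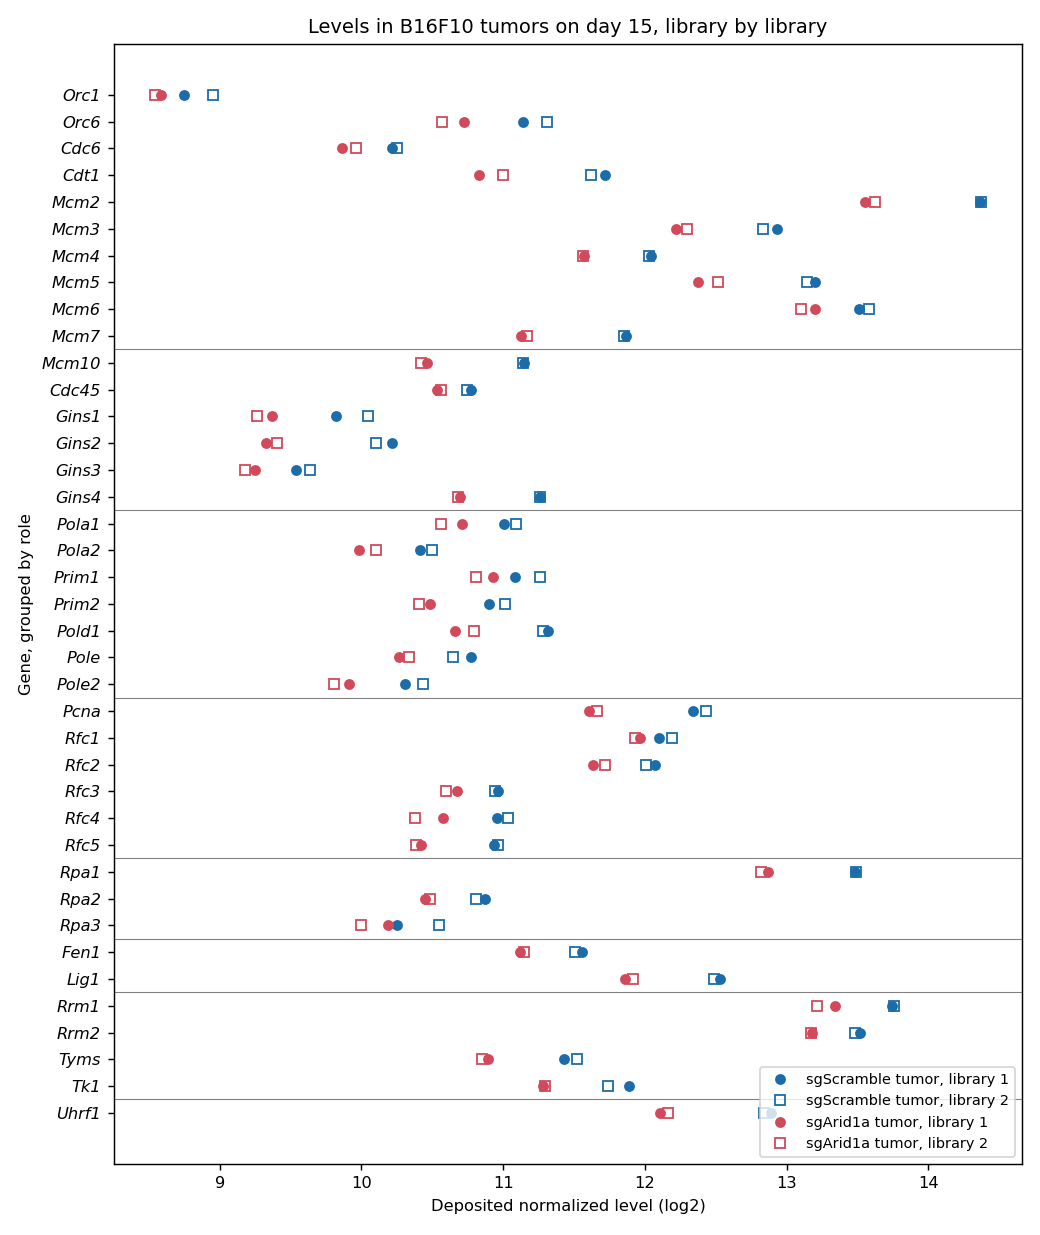
Deposited log2 levels (horizontal axis) of the 39 genes (rows, grouped by role) in the 2 sgScramble tumors (blue) and the 2 sgArid1a tumors (red), with filled circles for library 1 and open squares for library 2. Every red symbol stands to the left of both blue symbols of its row, by 0.79 between the means for Gins2 and by 0.20 for Rfc1.

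The ring subunit Mcm2 was at 14.37 and 14.37 in control tumors and at 13.55 and 13.62 in sgArid1a tumors. It fell by 0.78 ± 0.06 (standard error, n = 2 and 2), with a limma adjusted p of 3.58e-07, the smallest of the 39. Gins2, a GINS subunit, was at 10.21 and 10.10 in control and at 9.32 and 9.40 in sgArid1a tumors, a fall of 0.79 ± 0.07 (adjusted p = 2.14e-06 by limma). In both genes the 2 libraries of a group stood much closer to each other than to the other group. For Gins2, 66.2% of its 31-base words also occur in transcripts of Gse1, with which it overlaps, so reads of the 2 genes may not be told apart. The loading factor Cdt1 was at 11.72 and 11.62 against 10.83 and 10.998, and fell by 0.75 ± 0.07.

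The 10 licensing genes had a median difference of -0.60, with the least change in Orc1 (-0.29), Cdc6 (-0.32) and Mcm6 (-0.40). Among the genes that activate the helicase the median was -0.59, and Mcm10 fell by 0.70 while Cdc45 fell by 0.22. The 7 polymerase and primase genes lay close together, between -0.57 (Pold1) and -0.31 (Prim1). The sliding clamp Pcna, at 12.34 and 12.43 in control and 11.60 and 11.66 in sgArid1a tumors, fell by 0.75 ± 0.06, whereas its loader subunits fell by 0.20 (Rfc1) to 0.55 (Rfc5). So the clamp moved more than each of its 5 loaders, although the difference between them was not tested. Of the 3 Rpa subunits the large one, Rpa1, fell by 0.64 and the others by 0.37 (Rpa2) and 0.31 (Rpa3). Lig1, the ligase of the lagging strand, fell by 0.62, Fen1 by 0.40, the deoxynucleotide enzymes by 0.33 (Rrm2) to 0.60 (Tyms), and Uhrf1 by 0.73 ± 0.06, from 12.89 and 12.84 to 12.11 and 12.16.

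Other genes of the cell cycle moved with them in tumors. Of 30 further replication genes 23 were lower and 1 higher (Asf1b, a histone chaperone, by -0.80, and Chaf1b, of the chromatin assembly factor, by -0.66), and of 30 further genes of nucleotide supply 22 were lower and 3 higher (Dut, which removes dUTP, by -0.73, and the deaminase Dctd by -0.70). Of 20 mitosis genes 19 were lower and none higher, with a median of -0.53 and the largest falls in Nusap1 (-0.79) and Bub1 (-0.77). Of 26 regulators of the passage from G1 to S phase, 15 were lower and 4 higher. The largest rise among these was that of Cdkn1a, which codes for the inhibitor p21, from 12.33 and 12.17 to 13.28 and 13.36 (+1.07, limma adjusted p = 8.54e-08). Cdk6 rose by 0.77.

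Markers of other cells moved in the same libraries. All 9 macrophage markers were called higher, with a mean log2 level of 9.63 and 9.58 in control and 10.76 and 10.77 in sgArid1a tumors, as were all 10 skeletal muscle markers (7.14 and 7.14 against 9.77 and 9.72) and all 6 endothelial markers (9.18 and 9.10 against 9.59 and 9.59). All 5 erythroid markers were lower (9.498 and 9.38 against 8.23 and 8.31). Of 7 melanocyte markers 3 were lower and 1 higher, at a mean of 15.98 and 15.95 against 15.68 and 15.73. Of 7 listed T cell markers 4 (Cd3g, Cd4, Cd8a and Cd2) passed the filter on low values and were higher, 3 fibroblast markers of 8 were higher and 3 lower, and of 3 neutrophil markers tested 1 was higher and 2 lower. Their part in the fall of the 39 genes was not tested.

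In untreated B16F10 cultures the direction was the opposite. With sgArid1a, 14 of the 39 genes were called higher by limma and none lower, while 11.8% of all 11604 genes tested were called, 5.84% as higher. The median difference over the 39 genes was 0.26, against 0.01 over all genes, and 36 of the 39 had a positive difference. Uhrf1, Tk1 and Orc1 rose the most. Both sgArid1a libraries lay above both sgScramble libraries for 31 of the 39 genes, as they did for 27.7% of all genes.

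Uhrf1 was at 11.78 and 11.94 with sgScramble and at 12.51 and 12.44 with sgArid1a, a rise of 0.61 ± 0.09 (n = 2 and 2, limma adjusted p = 0.00104). Tk1, which salvages thymidine, was at 10.66 and 10.86 against 11.31 and 11.33 and rose by 0.56 ± 0.10 (adjusted p = 0.00302 by limma). Orc1, the subunit of the origin complex made in G1, was at 8.05 and 7.93 against 8.55 and 8.52, a rise of 0.54 ± 0.10. In all 3 genes the groups were set apart by more than the gap within either group.

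Rises were spread over most roles. Licensing gave Orc1, Cdc6 (0.43) and Mcm6 (0.37), helicase activation Mcm10 (0.42), Gins1 (0.485) and Gins2 (0.48), and primase Prim1 (0.38). The clamp Pcna rose by 0.39, from 11.91 and 11.74 to 12.17 and 12.27, both lagging strand genes rose (Fen1 by 0.49 and Lig1 by 0.32), and Rrm1 and Rrm2 rose by 0.32 and 0.33. None of the 5 Rfc loaders, the 3 Rpa subunits or the catalytic subunits Pola1, Pold1 and Pole passed the threshold, with differences from -0.09 (Rpa3) to 0.23 (Rpa2, Pole). For Fen1, 79.6% of its 31-base words also occur in other genes, nearly all of them in Gm10143, so its value is uncertain.

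The count of 14 depended on the libraries that were fitted together and on single libraries. It was 3 when either the first or the second sgArid1a library was left out and 3 when only these 4 libraries were fitted, so that the spread was no longer shared with the libraries labelled as double knockouts. In related lists, 5 of 30 further replication genes (Chaf1a by 0.55 and the nuclease Dna2 by 0.46), 6 of 30 nucleotide supply genes (Mthfd1 of the folate cycle by 0.61 and Umps of pyrimidine synthesis by 0.48) and 4 of 20 mitosis genes (Bub1b by 0.48 and Ttk by 0.41) were called higher and none lower. Of the 26 G1/S regulators 2 were higher and 3 lower, among them the inhibitor Cdkn1b (-0.59) and Rb1 (-0.50).

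**Figure D3:**
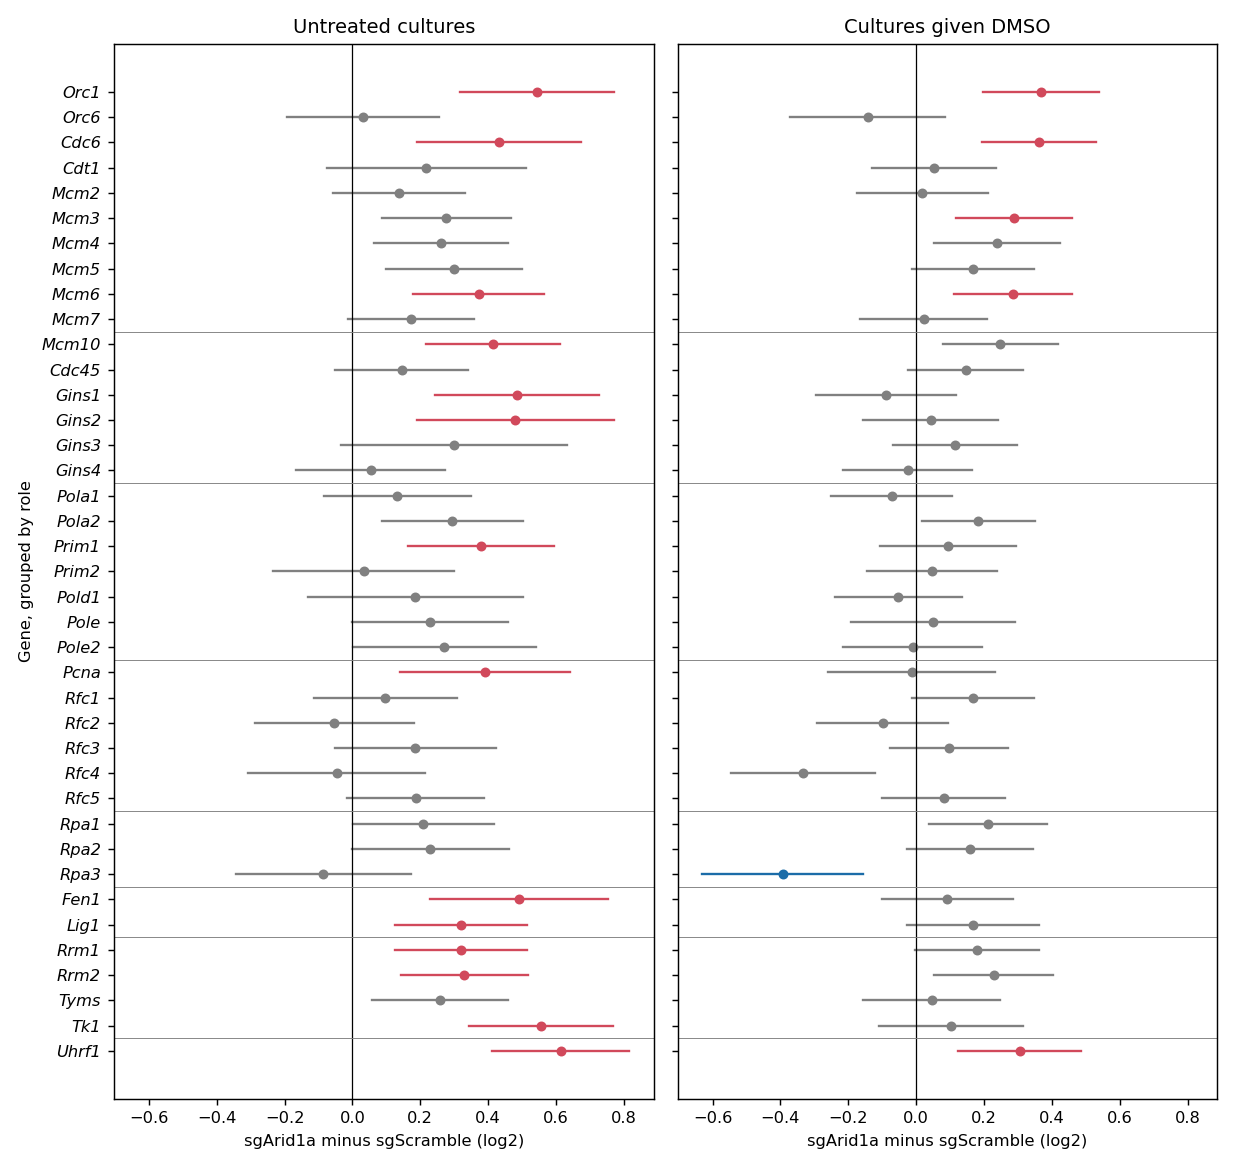
Difference between sgArid1a and sgScramble cultures (log2, horizontal axis) for the 39 genes (rows, grouped by role) in untreated cultures (left) and cultures given DMSO (right), with 95% confidence intervals and with red for genes called higher, blue for genes called lower and grey for the rest. The points on the left have a median of 0.26 and those on the right a median of 0.09, and Orc1, Cdc6, Mcm6 and Uhrf1 are red on both sides.

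Cultures given DMSO for 72 h were a separate sgArid1a and sgScramble pair, with no libraries in common with the untreated ones. Here 5 of the 39 genes were called higher with sgArid1a and 1 lower, while limma called 7.88% of all 11783 genes tested, 3.5% as higher and 4.38% as lower. The 5 were Orc1, Cdc6, Mcm3, Mcm6 and Uhrf1, 4 of them licensing genes, and the 1 lower was the small single-strand binding subunit Rpa3. The median difference was 0.09, against 0.00 over all genes (8e-04). The mean level of the 39 genes was 10.64 and 10.73 in the sgScramble libraries and 10.78 and 10.77 in the sgArid1a libraries. The control libraries thus stood about as far from each other as the median difference between the groups. Of the 14 genes higher in untreated cultures, 4 (28.6%) were also higher here, which is 80% of the 5. How many of all genes were called higher in both was not counted, so this overlap shows nothing particular to the 39 genes.

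Orc1 was at 8.25 and 8.19 with sgScramble and at 8.63 and 8.56 with sgArid1a, a rise of 0.37 ± 0.08 (limma adjusted p = 0.0139). Cdc6, which loads the ring, was at 9.12 and 9.07 against 9.45 and 9.47 and rose by 0.36 ± 0.08 (limma adjusted p = 0.0132). Rpa3 was at 9.90 and 10.27 against 9.76 and 9.63, so its fall of 0.39 ± 0.11 (limma adjusted p = 0.0458) was about as large as the gap between the control libraries. Pcna was at 11.77 and 12.17 with sgScramble and at 11.96 and 11.95 with sgArid1a, and Tk1 at 10.58 and 10.86 against 10.83 and 10.82. For these the sgArid1a libraries lay between the control libraries. Both sgArid1a libraries lay above both sgScramble libraries for 20 of the 39 genes, against 25.8% of all genes. The count of 6 was 18 without the first of them (12 higher, 6 lower), 12 without the second and 0 without either sgArid1a library.

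In MC38 cells no gene of the 39 was called higher with sgArid1a and 6 were called lower, while limma called 21.2% of all 11516 genes, 12.9% as lower. The falls called ran from 0.09 to 0.26, and the standard error was 0.03 for every one of the 39 genes. Pcna was at 12.08 and 12.09 with sgScramble and at 11.80 and 11.85 with sgArid1a, a fall of 0.26 ± 0.03 (limma adjusted p = 1.11e-08). Rrm2, the S-phase subunit of ribonucleotide reductase, was at 12.65 and 12.66 against 12.42 and 12.45 and fell by 0.22 ± 0.03 (adjusted p = 9.39e-08 by limma). The other 4 were licensing genes, with Cdc6 at -0.15, Mcm6 at -0.12, Cdt1 at -0.11 and Orc1 at -0.09. Every 95% interval of the 39 genes lay within -0.32 and 0.13. Both sgArid1a libraries lay below both controls for 18 of the 39 genes (30.6% of all genes) and above them for 1 (28.3% of all genes).

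The median of the 39 was -0.03 in MC38 cells, against 0.00 over all genes (-3e-04). Of 20 mitosis genes 9 were lower, led by Cdc20 and Top2a (-0.12 and -0.11), and 7 of 29 nucleotide supply genes tested were lower, led by Ctps (-0.24) and Impdh1 (-0.23), with none higher in either list. Among the G1/S regulators 6 were lower and 1 higher, with Ccnd1 and Ccnd2 both at -0.19. Leaving out either the first or the second sgArid1a library reduced the count of 6 to 3.

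MEFs taken on day 5 gave no call among the 39 genes by limma, while 9.71% of all 12184 genes were called. This count turns on the replicate number, which no label ties to a shared culture or batch: libraries with the same number deviated together (r = 0.686 across genes), and a fit with the number as a block called 21 of the 39, 4 higher and 17 lower. The 9.71% of all genes belongs to the fit without the block, so the 21 cannot be set against it. Without adjustment 8 of the 39 had a p under 0.05, and the authors' deposited table called none. The lowest were Tk1 (10.24 and 10.38 with ethanol, 10.03 and 10.19 with tamoxifen, -0.20 ± 0.07) and Gins2 (9.58 and 9.63 against 9.40 and 9.45, -0.18 ± 0.06), and the highest was Gins3 (8.02 and 8.04 against 8.16 and 8.16, 0.13 ± 0.05). All 4 nucleotide synthesis genes were among the 8, between -0.20 (Tk1) and -0.13 (Tyms), and the median over the 39 was -0.06 against -0.01 over all genes. No interval of the 39 genes reached beyond -0.35 or 0.25. The libraries given tamoxifen lay below both others for 17 of the 39 genes (28.4% of all genes) and above them for 6 (24.6% of all genes). Leaving out the first ethanol library, the second ethanol library or the second tamoxifen library gave 1 call each. Cdkn1a, coding for p21, was higher in the MEFs given tamoxifen as well, at 9.33 and 9.47 against 8.61 and 8.71 (0.74, limma adjusted p = 3.86e-05), and cyclin gene Ccnd2 rose by 0.40.

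Cultures given PBS, labelled sgArid1a and sgScramble, showed no call among the 39 genes by limma either, with 2.72% of all 12357 genes called, an unadjusted p under 0.05 for 3 genes and no call in the authors' deposited table. The differences ran from -0.10 (Cdc6) to 0.09, and no interval reached beyond -0.20 or 0.18. In these libraries Arid1a itself overlapped between the labels, as given above.

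IFNγ for 24 h changed about as large a share of the 39 genes as of all genes, and by little. In libraries labelled sgScramble 11 of the 39 were called higher and 2 lower (35% of all 12357 genes called, 15.7% higher), and in those labelled sgArid1a 14 higher and 1 lower (42.3% of all genes, 20.9% higher). In either direction these are 13 (33.3%) and 15 (38.5%) of the 39, and the medians were 0.06 and 0.07 against 0.01 over all genes in each. Most calls among the 39 were thus higher, whereas the calls over all genes were divided more evenly between higher and lower. The called differences did not exceed 0.27 in either direction. Of the 7 polymerase and primase genes 4 and 6 were higher with the 2 labels and none was lower. Of the 10 licensing genes 2 were higher with each label, and Mcm6 was the 1 called with both.

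Both primase genes were called higher with either label. The gene of the catalytic subunit, Prim1, went from 11.14 and 11.11 with PBS to 11.33 and 11.33 with IFNγ in libraries labelled sgScramble (0.21 ± 0.04, limma adjusted p = 5.15e-04), and from 11.08 and 11.08 to 11.24 and 11.29 in those labelled sgArid1a (0.19 ± 0.04, limma adjusted p = 9.02e-04). Its partner Prim2 went from 10.51 and 10.54 to 10.70 and 10.75, and from 10.55 and 10.5004 to 10.71 and 10.75, a rise of 0.20 with either label. Pola1, the polymerase that extends the primers, rose by 0.14 and 0.27 (limma adjusted p = 0.0350 and 2.84e-04), Mcm6 by 0.14 and 0.16, Cdc45 by 0.17 and 0.15, Pole2 by 0.13 and 0.15 and Uhrf1 by 0.13 and 0.12 with the sgScramble and the sgArid1a label. Those that fell were Gins4 (10.94 and 10.91 to 10.85 and 10.75) and Rpa1 (13.68 and 13.66 to 13.57 and 13.54) with sgScramble, and Cdt1 (12.10 and 12.19 to 11.98 and 12.05) with sgArid1a. Among the libraries labelled sgArid1a, Rfc1, the large loader subunit, rose by 0.20.

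No gene of the 39 differed between the labels in its response to IFNγ by limma's interaction term (0.882% of all genes called), with an unadjusted p under 0.05 for Pole and Rfc1 only. Without the second library labelled sgScramble with IFNγ the interaction gave 3 calls. The count of 13 with the sgScramble label was 4 without the first and 3 without the second PBS library of that label, and the count of 15 with the sgArid1a label was 8 without the second PBS library and 6 without the second IFNγ library of that label. Of the 26 G1/S regulators, 11 were lower, 5 higher and 10 not called with the sgScramble label, and the largest changes were those of Ccnd1 (cyclin D1), which fell by 0.99, and Cdk6, which fell by 0.88. With the sgArid1a label 10 were lower, 8 higher and 8 not called, and the largest were the falls of Cdkn1a by 1.08 and Ccnd1 by 1.001.

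The libraries labelled as double knockouts were compared with the same untreated sgArid1a libraries as used above, and the 39 genes were called about as often as all genes. With sgCgas 4 were called higher and 6 lower (28.7% of all 11604 genes called by limma, 12.2% higher and 16.5% lower), and with sgSting 5 higher and 7 lower (31.8% of all genes, 13.9% higher and 17.9% lower). In either direction these are 25.6% and 30.8% of the 39, so the counts show nothing about the 39 genes as a group, and single genes are described here. Pcna, Rpa3, Tk1, Tyms, Mcm7 and Uhrf1 were lower with each label, and Mcm4, Pole and Rrm2 were higher in each, although both comparisons rest on the same sgArid1a libraries. Pcna fell by more here than any of the 39 genes in any other comparison made here. When each library was centred on its median gene, the split was 7 higher and 5 lower with sgCgas and 8 higher and 5 lower with sgSting.

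**Figure D4:**
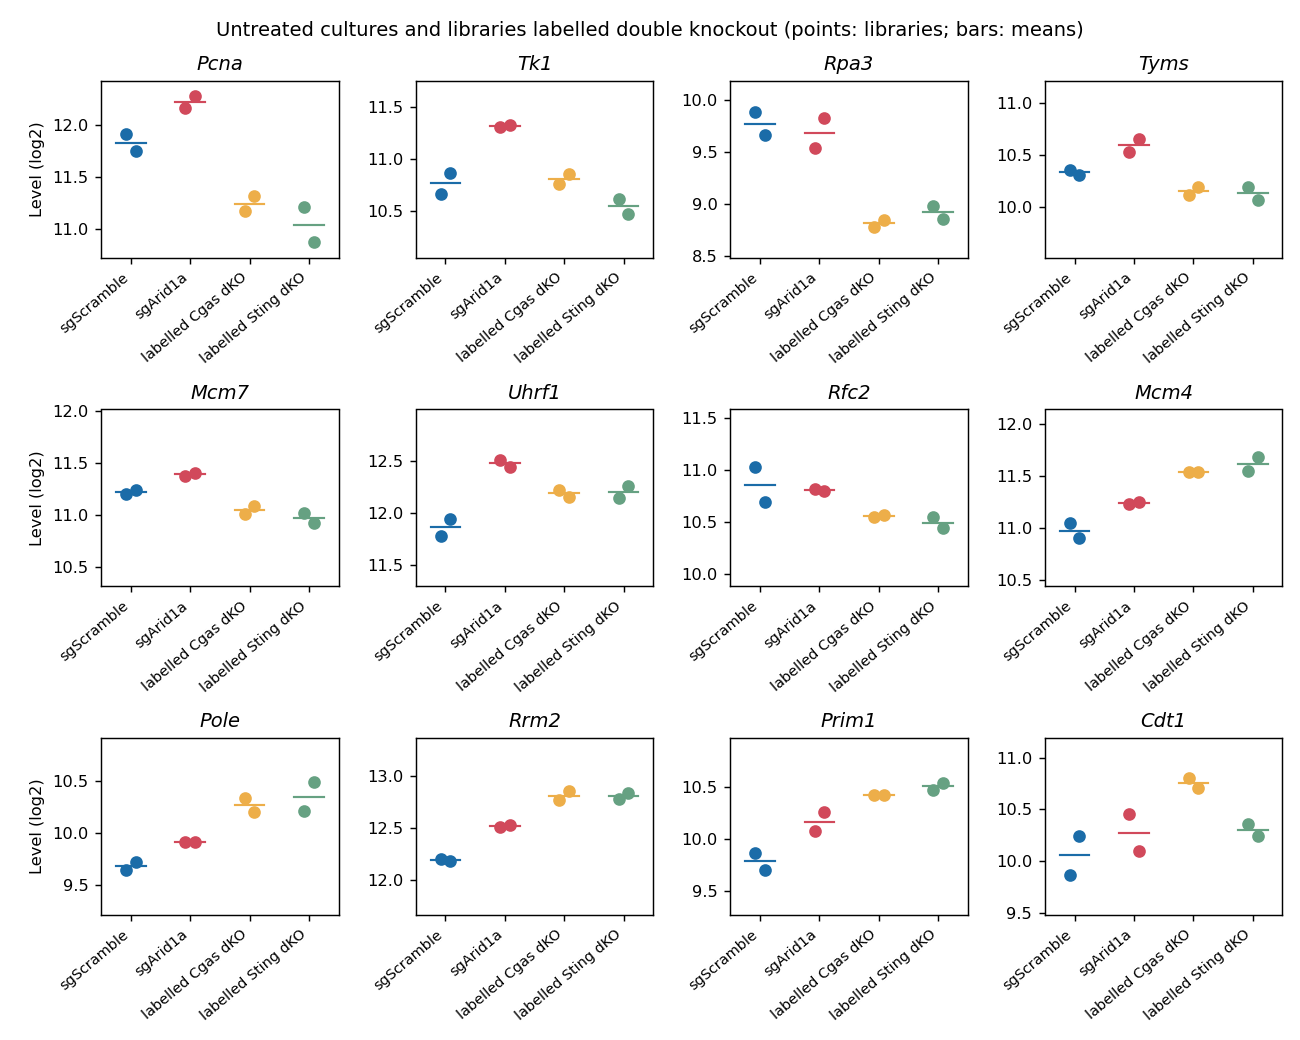
Log2 levels (vertical axes, all spanning the same range) of 12 of the genes in untreated sgScramble and sgArid1a libraries and in those labelled as Cgas or Sting double knockouts (dKO), with a point for each library and a bar for the mean of 2. Pcna, Tk1, Tyms, Mcm7 and Uhrf1 stand highest in sgArid1a cultures, and Mcm4, Pole and Rrm2 are called higher with both dKO labels than in the sgArid1a cultures.

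Pcna was at 12.17 and 12.27 in sgArid1a cultures, at 11.17 and 11.31 with sgCgas and at 11.20 and 10.87 with sgSting, a fall of 0.98 ± 0.12 (limma adjusted p = 3.01e-05) and of 1.18 ± 0.12 (limma adjusted p = 4.69e-06). All 4 libraries labelled as double knockouts thus lay below the untreated sgScramble libraries (11.91 and 11.74) as well. Rpa3, the small single-strand binding subunit, was at 9.54 and 9.83 in sgArid1a cultures, at 8.78 and 8.84 with sgCgas and at 8.98 and 8.86 with sgSting, and fell by 0.87 and 0.77, while Rpa1 and Rpa2 had positive differences of 0.10 to 0.28 that were not called. Tk1 was at 11.31 and 11.33, at 10.75 and 10.85 with sgCgas and at 10.62 and 10.47 with sgSting, back to or below the sgScramble level of 10.66 and 10.86. Tyms, the other enzyme of thymidylate supply, fell by 0.44 and 0.46, and Mcm7 by 0.34 and 0.42.

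On the rising side stood Pole, the catalytic subunit of polymerase epsilon, at 9.91 and 9.91 in sgArid1a cultures, 10.34 and 10.20 with sgCgas and 10.21 and 10.49 with sgSting, with rises of 0.36 ± 0.11 and 0.44 ± 0.11. Mcm4 was at 11.23 and 11.25, at 11.54 and 11.54 with sgCgas and at 11.55 and 11.68 with sgSting, so it rose by 0.31 and 0.38 while its ring partner Mcm7 fell. Rrm2 rose by 0.29 with each label. Cdt1 rose with sgCgas (0.47), from 10.46 and 10.10 to 10.80 and 10.70, and so its sgArid1a libraries stood well apart. With sgSting, Prim1 (0.34) and Rrm1 (0.26) rose and the loader Rfc2 fell by 0.32.

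The count of 10 with sgCgas was 5 and 3 without the first and the second sgArid1a library and 3 and 4 without the first and the second sgCgas library, and it was 19 when only the 4 libraries compared were fitted. The count of 12 with sgSting was 5 and 6 without the first and the second sgArid1a library and 5 without 1 of the 2 sgSting libraries. Of the genes that fell, Pcna shares 23.3% of its 31-base words with another gene (the pseudogene Pcna-ps2), Mcm7 33.4%, Uhrf1 24.2%, Rfc2 19.3%, Rpa3 13.3%, Tyms 11.4% and Tk1 4.9%. Among those that rose the shares were 1.6% for Pole, 5.3% for Mcm4 and Rrm1, 12.8% for Rrm2, 2.0% for Prim1 and 0.4% for Cdt1. The part of shared sequence in the result was not tested. Among related genes the mitotic cyclin Ccnb1 fell by 1.01 with sgCgas and 1.10 with sgSting, with 3 and 4 of 20 mitosis genes lower and none higher.

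Blocking interferon signals gave no call among the 39 genes in sgArid1a cultures. With anti-IFNAR no gene of the 39 was called by limma (0.0171% of all 11686 genes called), none had an unadjusted p under 0.05, and the authors' deposited table called none. The intervals of the differences all lay between -0.32 and 0.28. Ruxolitinib gave no call by limma either (0.221% of all 11783 genes called), with an unadjusted p under 0.05 only for Pold1, which was at 10.44 and 10.58 with DMSO and 10.19 and 10.33 with ruxolitinib (-0.25 ± 0.09, limma adjusted p = 0.471). Pold1 was also the 1 gene of the 39 called lower in the authors' deposited table, and the intervals lay between -0.43 and 0.41.

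BD98 lowered most of the 39 genes in sgScramble B16F10 cultures. By edgeR's quasi-likelihood test 26 were lower and 1 higher, while 49.9% of all 12843 genes tested were called, 25.4% as lower and 24.5% as higher. The median difference was -0.25, against 0.01 over all genes, and both BD98 libraries lay below both DMSO libraries for 32 of the 39 (36.6% of all genes). Gins1 and Mcm2 fell the most, and Rpa3 was the gene that rose. Values below are log2 of CPM (counts scaled to library size) with 1 added.

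Gins1, a GINS subunit, was at 4.84 and 4.80 with DMSO and at 4.09 and 4.04 with BD98, and fell by 0.79 ± 0.12 (edgeR adjusted p = 3.80e-06). Mcm2 was at 9.71 and 9.60 against 8.96 and 8.80, a fall of 0.77 ± 0.07 (edgeR adjusted p = 1.41e-09). Rpa3 was at 6.12 and 6.03 against 6.43 and 6.38 and rose by 0.33 ± 0.08 (edgeR adjusted p = 0.00152), while its partners Rpa1 and Rpa2 fell by 0.42 and 0.38. Within the GINS complex the response was uneven, with Gins4 falling by 0.56 and Gins2 (5.16 and 5.04 against 5.45 and 4.85) and Gins3 (4.79 and 4.71 against 4.58 and 4.65) not called. The Gins2 values of the groups overlapped, since the BD98 libraries stood far apart, while those of Gins3 did not.

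Both leading and lagging strand polymerases were lower, Pold1 by 0.63 and Pole by 0.60, whereas Pola1 (-0.17) and Pola2 (-0.08) were not called and Prim1 and Prim2 fell by 0.21 and 0.25. The clamp Pcna fell by 0.33 and 4 of its 5 loaders fell, with Rfc4 the most (0.56) and Rfc1 not called (-0.04). Lig1 fell by 0.46 and Fen1 by 0.25. The origin factors Orc1 (4.33 and 4.28 against 4.41 and 4.36), Orc6 and Cdc6 (5.57 and 5.59 against 5.62 and 5.62) were not called, while Cdt1 fell by 0.52. Among the nucleotide enzymes Rrm1 and Rrm2 fell by 0.27 and 0.18, and Tyms and Tk1 were not called.

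In the related lists 17 of 20 mitosis genes were lower with BD98 and none higher (Ccnb2 by -0.63, Cenpe by -0.62), and 13 of 30 further replication genes were lower and 4 higher (Chaf1b by -0.71, Pold4 by 0.67). Nucleotide supply genes went both ways, with 10 higher and 5 lower of 30 (Impdh1 by 0.95, Adssl1 by -1.51). Of the G1/S regulators 9 were lower and 7 higher, with Cdk2 at -1.54 and Cdk6 at 0.75. All 7 melanocyte markers fell, with a median of -1.48, in the same libraries, and their part in the result was not tested.

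When anti-IFNAR was added to BD98, 1 gene of the 39 was called higher against BD98 alone and none lower, with 1.49% of all 12843 genes called by edgeR, 0.109% as higher. This was Pole, at 5.91 and 5.97 with BD98 and at 6.24 and 6.24 with both (0.31 ± 0.08, edgeR adjusted p = 0.0446), between the BD98 level and that of DMSO alone (6.54 and 6.52). Of the 39 genes 33 had a positive difference, with a median of 0.11 against 0.00 over all genes (-0.0019), and 12 had an unadjusted p under 0.05. The single call was lost with DESeq2 and when only the 4 libraries were fitted. The count was 4 and 2 without the first and the second BD98 library and 0 without either library of the combination. The 2 BD98 comparisons share the BD98 libraries.

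**Figure D5:**
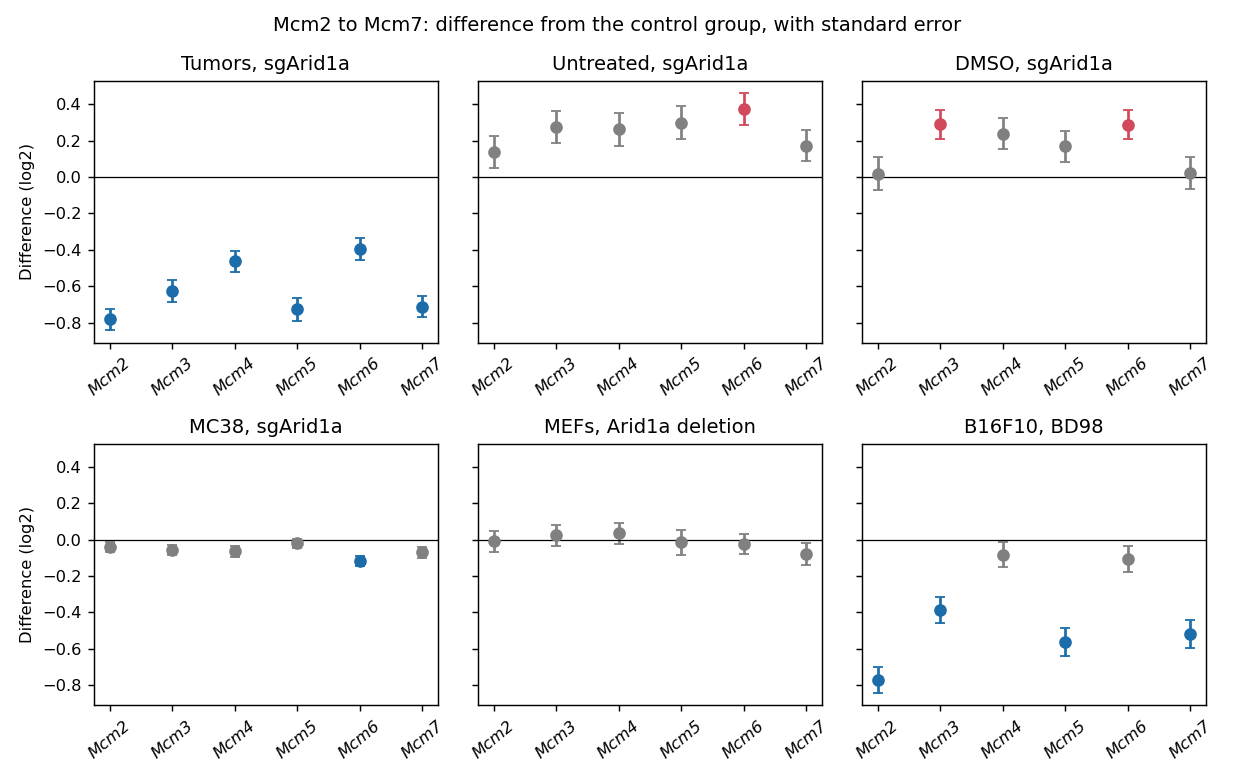
Log2 difference from the control group (vertical axis, shared) with standard error for the 6 ring subunits Mcm2 to Mcm7 in 6 comparisons, with red for genes called higher, blue for genes called lower and grey for the rest. In tumors and with BD98, Mcm2, Mcm5 and Mcm7 stand lower than Mcm4 and Mcm6, and with sgArid1a in untreated and DMSO-treated cultures Mcm6 is called higher while Mcm2 and Mcm7 are not called.

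The 6 subunits of the ring act as one complex, and their RNA did not shift by one amount. In tumors Mcm2, Mcm5 and Mcm7 fell by 0.78, 0.73 and 0.71 and Mcm3 by 0.63, while Mcm4 (12.04 and 12.03 against 11.57 and 11.57) and Mcm6 (13.51 and 13.58 against 13.20 and 13.10) fell by 0.46 and 0.40. With BD98 the same 3 fell by 0.77, 0.56 and 0.52 and Mcm3 by 0.39, and Mcm4 (7.54 and 7.51 against 7.48 and 7.42) and Mcm6 (8.37 and 8.24 against 8.17 and 8.23) had differences of -0.08 and -0.11 that were not called. These are separate sets of libraries, and in each the intervals of Mcm2 and of Mcm4 and Mcm6 did not overlap. In untreated cultures Mcm6 rose by 0.37 (11.94 and 12.01 against 12.32 and 12.38), with the other 5 subunits between 0.14 (Mcm2) and 0.30 (Mcm5) and not called. In cultures given DMSO, Mcm6 and Mcm3 each rose by 0.29, Mcm4 and Mcm5 stood at 0.24 and 0.17 and Mcm2 and Mcm7 at 0.02. In MC38 cells Mcm6 was the only subunit called, by -0.12. The differences between subunits within a comparison were not tested.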

How the data were processed

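RNA of 42 libraries was used; 4 total RNA libraries were not used here, nor were 10 columns of per-sample values that no label tied to a sample. Reads were aligned with STAR 2.5.3a and counted over exons with HOMER on GRCm38 (mm10), per the submitters' processing notes and the file headers. No strand setting is given in the sources used here, so values of genes that overlap or share sequence are uncertain. The authors deposited log2 values in 7 tables, whose low values are drawn together as in a regularized log (inferred from the values), so differences of low genes are understated. The BD98 table holds the deposited read count per gene. The fold changes, as log2, and the adjusted p-values of the authors' deposited tables were used only where named. Tables were normalized separately, so no level was compared across them. Tumor columns named WT were taken as sgScramble, and "24rs" as 24 h.

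From the log2 values, genes with a mean of at least 4 were fitted per table with limma 3.58.1 with an intensity trend, all groups of a table sharing 1 spread. The counts were fitted with edgeR 4.0.16 (filterByExpr, TMM, quasi-likelihood), with DESeq2 1.42.0 as an alternative, in R 4.3.3. P-values were adjusted over all genes tested by Benjamini-Hochberg, with 0.05 as the threshold, and intervals are at 95%. Both procedures were run on data simulated with independent noise for each gene, and the outcome is not given here. Deviations shared by the genes of a library were not part of that simulation. BD98 values are log2 of CPM with 1 added.

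Any of the 39 genes could be named. Libraries are given for at least the 2 called genes with the largest change and for those moving against most; of each related list at most the 2 called genes with the largest change are named, besides Arid1a and cell type markers; the Cgas and Sting genes were added after the values were seen, as checks of the labels. The 39 genes and the lists were chosen with earlier results of these data known. Alternatives were other filters, centring, no trend, only the libraries compared, a replicate block, another normalization and leaving out each library.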

Additional observations from a re-analysis of the deposited data

Results flagged for a closer look

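Several of the 39 genes moved in opposite directions in 2 experiments, with both libraries of one group beyond both of the other in each. The differences between experiments were not tested, since the tables were normalized separately. How many of all genes moved in opposite directions in this way was not counted, so the counts below show nothing particular to the 39 genes. In single comparisons such a separation in 1 direction was common, from 24.6% of all genes (MEFs, above) to 40% (tumors, below). With Arid1a targeted, 31 genes were lower in tumors and higher in untreated cultures of the same cell line, and 20 were lower in tumors and higher in cultures given DMSO. Of the genes lower in tumors, 6 were higher in MEFs and 1, Rfc2, was higher in MC38 cells. Of those higher in untreated cultures, 14 were lower in MC38 cells and 15 in MEFs, and of those higher in cultures given DMSO, 9 were lower in MC38 cells and 7 in MEFs. Between MC38 cells and MEFs, 4 genes were lower in the first and higher in the second, and 1 was higher in the first and lower in the second. Here the direction in a comparison is that of the separated libraries and not of a call: 14 genes were called higher in untreated cultures, 5 in cultures given DMSO and none in MC38 cells or MEFs.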

How the results depend on the processing

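The counts of called genes among the 39 stayed within 1.5 times under the other settings, except as follows. Fitting only the libraries compared gave 3 calls in untreated cultures, 3 with DMSO, 19 with sgCgas and 0 for anti-IFNAR added to BD98. Without a filter on low values the DMSO count was 2 and that of anti-IFNAR added to BD98 was 3, and with DESeq2 the latter was 0. Samples share only a replicate number, with no shared batch in the labels and 2 pairs a comparison, and deviations of same-numbered libraries correlated across genes at 0.686 in MEFs and from -0.51 (tumors) to 0.305 (ruxolitinib) elsewhere. With the replicate block the count was 2 with DMSO, 21 in MEFs (4 higher, 17 lower) and 3 for anti-IFNAR added to BD98. Without the Sting libraries, a fit chosen after seeing the data, the block gave 4 in untreated cultures and 6 with sgCgas. No paired analysis was possible for sgSting because its columns carry no replicate number. The untreated libraries as normalized in the anti-IFNAR table, also chosen after seeing the data, gave 13. Leaving out 1 library gave 36 to 39 calls in tumors, 3 to 18 in untreated cultures, 0 to 18 with DMSO, 3 to 8 in MC38 cells, 0 to 1 in MEFs, 3 to 10 and 6 to 12 with IFNγ (labels sgScramble and sgArid1a), 0 to 3 for the interaction, 3 to 5 with sgCgas, 5 to 10 with sgSting, 19 to 31 with BD98 and 0 to 4 for anti-IFNAR added to BD98. The causes were not tested. Shares of all genes given in the Results belong to the fits described there and not to these settings. The authors' deposited tables called 39 of the 39 lower in tumors, 5 higher in untreated cultures, and 2 higher and 1 lower with DMSO. In MC38 cells they called 3 lower, and with IFNγ 6 higher (label sgScramble) and 12 higher and 1 lower (label sgArid1a). With sgCgas they called 8 higher and 8 lower, with sgSting 4 and 7, with BD98 1 and 21, and none for anti-IFNAR added to BD98. Their shares of all genes are not given here. For single genes, 5412 alternative values kept direction and side of the threshold, 259 lost the call, 101 gained one and 0 changed the sign of a called value. The fit of only the libraries compared was not run for the interaction, where it is the same fit. With 2 libraries a group, and 8.7 M reads in the shallowest, small differences were not detectable in the untreated comparison.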

Other observations

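Among regulators outside the 39 genes, the inhibitor gene Cdkn1a was higher with Arid1a targeted in tumors (1.07) and in MEFs (0.74), at 12.33 and 12.17 against 13.28 and 13.36 and at 8.61 and 8.71 against 9.33 and 9.47. It showed no such rise in untreated cultures, at 11.23 and 11.51 against 11.18 and 11.11 as normalized with the anti-IFNAR libraries. With DMSO it was at 11.08 and 10.99 against 10.95 and 11.10, and in MC38 cells at 7.46 and 7.46 against 7.42 and 7.40. With IFNγ it was the 1 of 26 G1/S regulators called for the interaction of label and treatment (-0.38, limma adjusted p = 0.00193). Mitosis genes rose with IFNγ, 10 of 20 with the label sgScramble and 11 of 20 with the label sgArid1a and none lower, led by Cenpf (0.21 and 0.37). In the libraries labelled as double knockouts, in which Arid1a was above its sgArid1a level, Cdc7, the kinase that fires origins, rose by 0.59 with the Cgas label and 0.78 with the Sting label, while Adssl1, of adenine nucleotide synthesis, fell by 1.19 and 1.28; both comparisons share the sgArid1a libraries.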
